A study of Mus musculus with 12 samples.

Results

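The 9 genes described here encode transcription factors that direct the making of skeletal muscle: Myod1, Myf5, Myf6 and Myog, which are the myogenic regulatory factors (MRFs), Mef2a, Mef2c and Mef2d of the MEF2 family, and Pax7 and Six4, which act upstream. They were chosen by name, with earlier results of these data known, and matched by symbol to the Ensembl identifiers of the count files. All 9 were found among the 48795 genes listed, and all 9 passed the filter on low counts that kept 14838 genes.

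MRFs are basic helix-loop-helix proteins that bind DNA at E-boxes, with the letters CANNTG, as partners of the widely expressed E proteins. MEF2 proteins bind A/T-rich sites next to E-boxes and act with the MRFs on contractile protein genes. Pax7 marks satellite cells, the stem cells of adult muscle, and Six4 binds the MEF3 site. In the usual order of events Pax7, Myf5 and Myod1 belong to the precursor cell and the myoblast, Myog to the onset of terminal differentiation, and Myf6 to later myotubes and muscle fibres.

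The genes were measured in C2C12, an established line of mouse myoblasts that fuse into myotubes. Cells differentiated for 5 days in 2% horse serum, although the cell type tag reads myoblasts, and mRNA was sequenced from 3 libraries in each of 4 groups. The vehicle group had 0.02% DMSO for 24 h and the gRc group 10 µM ginsenoside Rc, a ginseng saponin, for 24 h. The H2O2 group had vehicle for 18 h and then 0.25 mM hydrogen peroxide for 6 h, and the gRc + H2O2 group had gRc for 18 h before the same peroxide treatment (1 tag reads 24 h for this pretreatment). The design asks how peroxide changes the myotube transcriptome and whether gRc alters that change. C2C12 is a single line, and nothing in the labels tells whether the replicates came from separate cultures, so p-values measure only the spread among these libraries, and part of it may be technical.

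In the mouse assembly GRCm38, used by the authors, the MRF genes are compact and each has 1 transcript in the count files. Myod1 (ENSMUSG00000009471) lies at chr7:46376474-46379099 on the plus strand and Myog (ENSMUSG00000026459) at chr1:134289989-134292548 on the plus strand. Myf5 (ENSMUSG00000000435, chr10:107482908-107486134) and Myf6 (ENSMUSG00000035923, chr10:107492853-107494737) are neighbours on the minus strand. The MEF2 genes have many more transcripts, with 12 for Mef2a (ENSMUSG00000030557, chr7:67231163-67372858, minus strand), 31 for Mef2c (ENSMUSG00000005583, chr13:83504034-83667080, plus strand) and 7 for Mef2d (ENSMUSG00000001419, chr3:88142372-88172086, plus strand). Pax7 (ENSMUSG00000028736, chr4:139737062-139833528, minus strand) and Six4 (ENSMUSG00000034460, chr12:73099609-73113456, minus strand) have 2 each.

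The promoters of 3 members are shown because they hold, or lack, the letters through which these factors act on each other. Myog is shown because MRFs, MEF2 and Six4 are all known to act on it, Six4 because it carries the MEF3 letters itself, and Pax7 because it had the largest fitted fall of the members for H2O2 against vehicle. Each runs from 250 bases before to 50 bases past a transcription start in RefSeq (GRCm38.p6), 5′ to 3′ on the gene's strand, and capitals mark matches to an E-box, the MEF2 consensus (with at most 1 mismatch) or the MEF3 site.
Myog, chr1:134289754-134290053, plus strand: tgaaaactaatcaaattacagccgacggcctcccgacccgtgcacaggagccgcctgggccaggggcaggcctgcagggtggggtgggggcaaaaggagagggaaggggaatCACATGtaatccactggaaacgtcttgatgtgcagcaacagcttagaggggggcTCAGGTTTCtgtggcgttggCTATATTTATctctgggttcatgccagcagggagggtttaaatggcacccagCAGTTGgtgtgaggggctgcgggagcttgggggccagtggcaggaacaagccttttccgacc
Six4, chr12:73113196-73113495, minus strand: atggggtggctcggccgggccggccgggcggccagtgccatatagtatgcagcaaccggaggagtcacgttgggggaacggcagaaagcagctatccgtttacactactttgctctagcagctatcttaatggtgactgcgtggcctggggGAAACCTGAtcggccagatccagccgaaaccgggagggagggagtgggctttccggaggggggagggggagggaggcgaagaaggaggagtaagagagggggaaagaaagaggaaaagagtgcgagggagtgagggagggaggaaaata
Pax7, chr4:139832919-139833218, minus strand: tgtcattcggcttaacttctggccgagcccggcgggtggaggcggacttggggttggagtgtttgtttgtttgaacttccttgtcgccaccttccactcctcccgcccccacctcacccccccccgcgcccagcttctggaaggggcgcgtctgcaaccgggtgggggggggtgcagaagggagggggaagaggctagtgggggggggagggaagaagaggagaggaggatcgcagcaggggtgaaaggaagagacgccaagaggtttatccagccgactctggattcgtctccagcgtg
Counted from the start, the Myog window holds the E-boxes CACATG at -138 and CAGTTG at -12, the MEF3 letters TCAGGTTTC at -84 and CTATATTTAT at -64, a MEF2 site with 1 mismatch to the general consensus. The first Six4 window holds the MEF3 letters on the other strand, as GAAACCTGA at -99, and the Pax7 window holds none of the letters searched.

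Of the 9 members, 7 have a promoter in the RefSeq table, in 10 windows. Both strands were searched. Among all 32851 windows of the same length, 72.3% hold at least 1 E-box, 3.19% a full match to the MEF2 consensus, 25.6% a match with 1 mismatch and 0.429% the MEF3 letters TCAGGTTTC. The search with 1 mismatch was added because the full consensus does not cover the site of Myog. Mef2c had E-boxes at 2 of its 3 starts (CAAGTG at -234 and CATATG at -100 of 1 start, CAGATG at -245 of another) and 3 MEF2 matches with 1 mismatch. Mef2a had a full MEF2 match, CTAAAAATAG, at -2, and the windows of Myf5 and Mef2d held no match. A match is a run of letters and was not tested as a binding site.

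**Figure D1:**
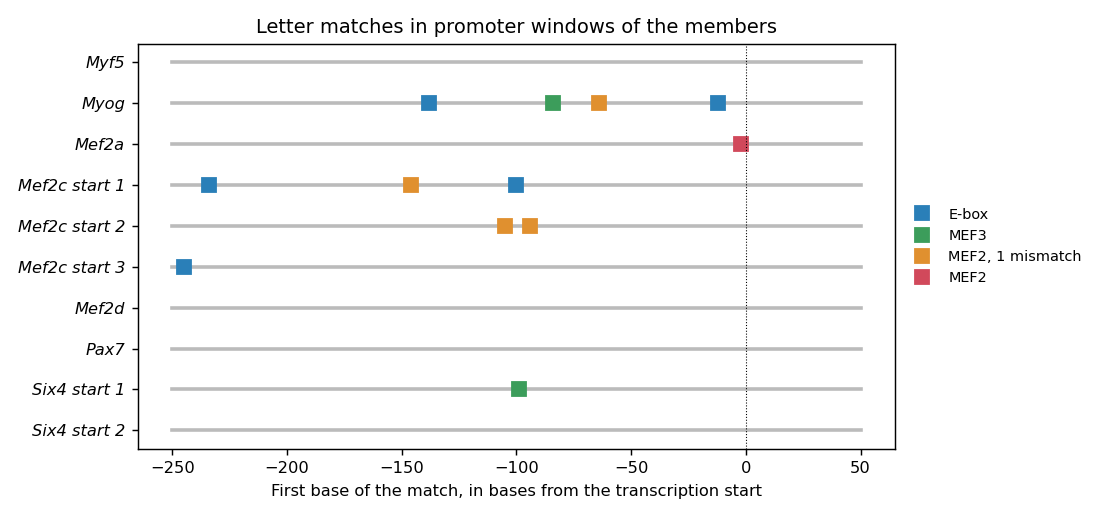
Positions of letter matches in the 10 promoter windows of the 7 members with an entry, in bases from the transcription start (dotted line). Each grey line is 1 window, and squares mark the first base of an E-box (blue), the full MEF2 consensus (red), the same with 1 mismatch (orange) or the MEF3 letters (green). Myog is the only window with 3 kinds of match.

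Library totals ran from 19274762 to 31409066 counts. Replicates did not all resemble each other. On the leading principal component, which held 43.1% of the variance, vehicle 1 lay at -68.6, vehicle 3 at 82.3 and gRc 3 at 84.2, while the other 9 libraries lay between -44.9 and 22.8. The level of GC-poor relative to GC-rich genes was -0.93 on the log2 scale in vehicle 1, 0.43 in vehicle 3 and 0.53 in gRc 3. On this measure vehicle 1 was far below the next library, H2O2 3 at -0.36. The highest was gRc 3, while gRc + H2O2 1 and 2 reached 0.34 and 0.44, the latter above vehicle 3. Results that rest on the 3 libraries are also given without them. The myotube markers Myh3, Acta1, Ckm, Mymk, Tnnt3 and Mylpf together reached 11640 to 22500 TPM, RSEM's scaled transcript abundance, in every library, and 0 of the 6 passed in any comparison. The 3 markers each of endothelial cells, macrophages and adipocytes summed to at most 1.79 TPM. At these levels the sums were above vehicle with H2O2: 0.16 to 0.54 against 0.06 to 0.14 TPM for endothelial cells, 0.14 to 0.15 against 0.06 to 0.12 TPM for macrophages and 0.47 to 1.79 against 0 to 0.15 TPM for adipocytes. Their part in the results was not tested.

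The levels of the 9 genes were compared with each other in TPM, which allows for transcript length. Myog stood far above the rest, with a mean of 1161 TPM over the 12 libraries, and was the highest of the 9 in every library. Mef2d followed at 159.5 TPM and Myod1 at 144 TPM, but their order differed with H2O2. Mef2d was the higher in 6 of 6 libraries with H2O2 and in 3 of 6 without it, where Myod1 had the higher means (165 against 160 TPM in vehicle and 177 against 155 TPM in gRc). Mef2c (98.5 TPM) was below Myod1 in 11 of 12 libraries and above Mef2a (69.2 TPM) in 12 of 12. A wide gap separated these from the 4 low genes. Among them, Myf5 (7.02 TPM) and Six4 (6.54 TPM) could not be ordered, each being the higher in 6 of 12 libraries. Six4 exceeded Pax7 (4.34 TPM) in 11 of 12 libraries and Pax7 exceeded Myf6 (3.28 TPM) in 9 of 12.

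H2O2 lowered 3 of the 9 genes against vehicle and raised none. Pax7 fell most, followed by Myf6 and Myod1, and the others did not pass an adjusted p of 0.05 in edgeR's quasi-likelihood test with Benjamini-Hochberg adjustment over 14838 genes. Across all genes tested, 15.7% passed in this comparison, and 7.84% passed in the downward direction. The median log2 fold change was -0.65 over the 9 members and -0.06 over all genes, and 8 of the 9 fitted values were below 0. In gRc-treated cells, H2O2 lowered Pax7 and Myf6 and no member rose, while 15.7% of all genes passed, 8.15% downward. There the median was -0.34 over the members and -0.04 over all genes. The 2 comparisons share no library, but they come from 1 fit with a shared estimate of the spread and are not fully independent.

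**Figure D2:**
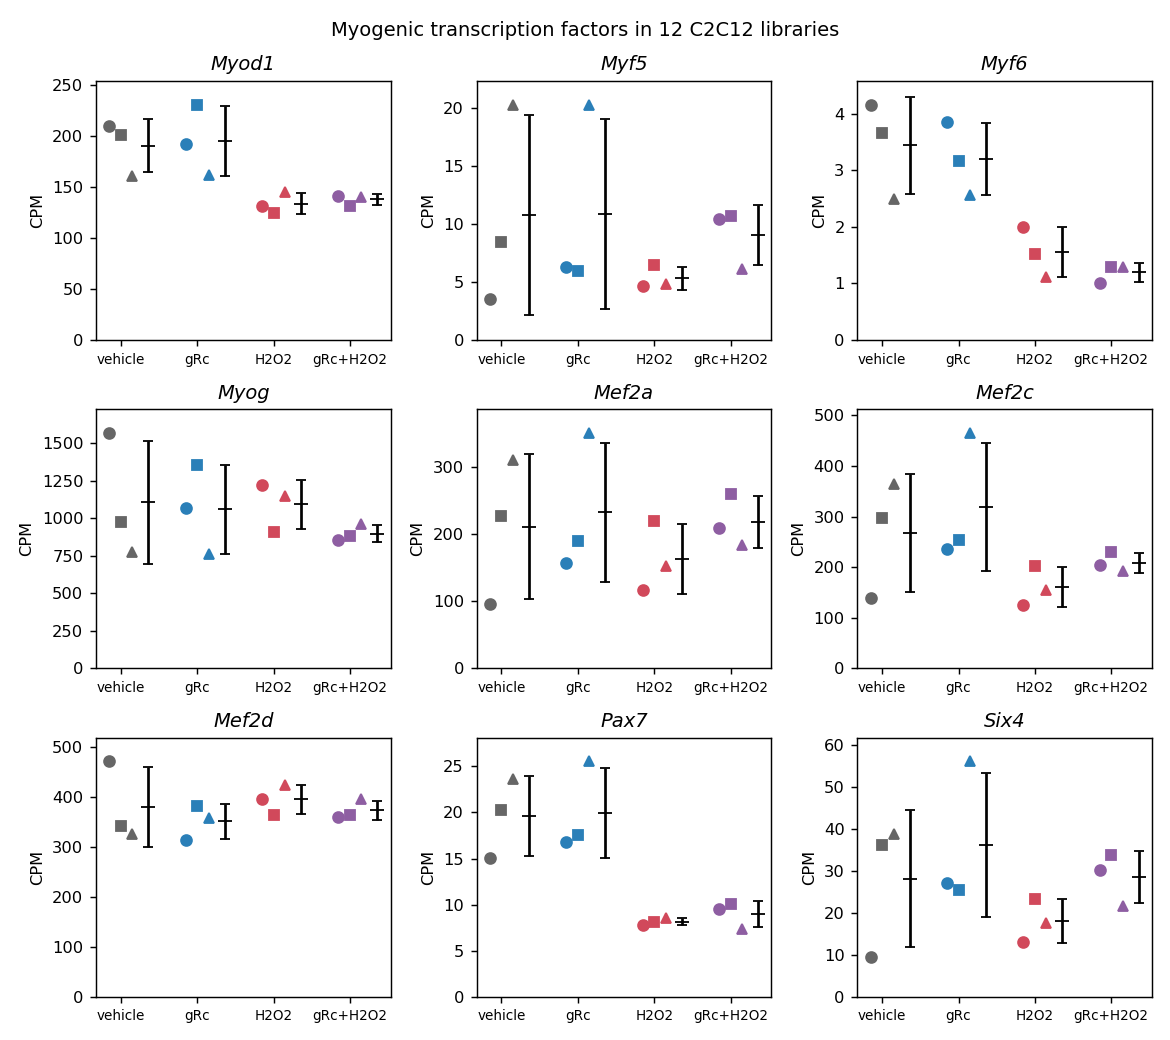
Normalized level of each gene in each of the 12 libraries, as CPM (counts scaled by TMM-normalized depth, linear axes from 0). Circles, squares and triangles are replicates 1, 2 and 3, and the black bar is the group mean ± SD (n = 3). For Pax7, Myf6 and Myod1 all 6 libraries with H2O2 lie below all 6 without it, as for 10.1% of all genes. Myog and Mef2d overlap across groups.

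Myod1 encodes MyoD, the factor able to turn fibroblasts into muscle cells. Its normalized level was 209, 200.8 and 161 CPM in vehicle 1, 2 and 3 and 191.6, 230.6 and 162 CPM in gRc. With H2O2 it was 131, 124.5 and 144.5 CPM, and with gRc + H2O2 141, 131 and 140.5 CPM. Every library with H2O2 was thus below every library without it, as was the case for 10.1% of all genes. Against vehicle alone, H2O2 libraries lay below without overlap for 15.2% of all genes. Against vehicle, H2O2 lowered Myod1 by 0.51 on the log2 scale (log2 fold change -0.51, standard error (SE) 0.16, edgeR adjusted p = 0.0493), to 0.701 of the vehicle level. After gRc the difference was -0.50 (SE 0.16, adjusted p = 0.0538), which did not pass.

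The call for Myod1 lay at the threshold. It was lost with the replicate number as a block (adjusted p = 0.0665), with other size factors (0.0569), without the filter (0.108), with limma on TPM (0.0611) and in a fit of the 2 groups alone (0.125). It was also lost without vehicle 1 (0.0875) or 2 (0.124), gRc 1 (0.0759), H2O2 1 (0.136), 2 (0.167) or 3 (0.0934), or gRc + H2O2 1 (0.0818), 2 (0.0803) or 3 (0.0779). The call held with DESeq2 (0.0213), a minimum of 10 counts (0.0434), the GC correction (0.0264) and GC and block (0.0282). It also held without vehicle 3 (0.0302), gRc 2 (0.0418) or gRc 3 (0.0272). Without the 3 libraries that stood apart the value was -0.60, with a lone vehicle library. The difference after gRc passed without vehicle 1 (0.0381), vehicle 3 (0.0380) or gRc 3 (0.0244), and without all 3 libraries that stood apart (-0.62, adjusted p = 0.00386). It also passed with DESeq2 (0.0313), a minimum of 10 counts (0.0472), the GC correction (0.0371) and GC and block (0.0385), which makes 5 of 10 settings. The fitted difference lay between -0.64 and -0.35 in every fit that left out 1 library.

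Myf6 encodes MRF4, the MRF of late differentiation, and was the lowest of the 9. Its CPM were 4.16, 3.67 and 2.5 in vehicle 1, 2 and 3 and 3.85, 3.17 and 2.57 in gRc, from 70 to 107 counts per library. They were 2.00, 1.53 and 1.12 with H2O2 and 1.00, 1.29 and 1.28 with gRc + H2O2, from 27 to 45 counts. No library with H2O2 reached the lowest library without it, as was the case for 10.1% of all genes. The log2 fold change was -1.15 (SE 0.28, edgeR adjusted p = 0.0199) for H2O2 against vehicle and -1.42 (SE 0.29, adjusted p = 0.00744) for gRc + H2O2 against gRc. The call against vehicle was lost without vehicle 2 (0.0563), H2O2 2 (0.0714) or H2O2 3 (0.0880), and in a fit of the 2 groups alone (0.0936). The call after gRc held in a fit of the gRc and gRc + H2O2 groups alone (adjusted p = 0.0127). It also held without each library in turn (adjusted p from 0.0052 to 0.0426).

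Myf5, the MRF that comes first in the embryo, varied more within groups than between them. Vehicle 1, 2 and 3 stood at 3.49, 8.40 and 20.3 CPM and the gRc libraries at 6.26, 5.97 and 20.3 CPM. The H2O2 libraries stood at 4.66, 6.45 and 4.84 CPM and the gRc + H2O2 libraries at 10.4, 10.6 and 6.07 CPM. The highest values, in vehicle 3 and gRc 3, belong to libraries that stood apart, and the groups overlapped. The log2 fold change was -1.01 against vehicle (95% interval -2.35 to 0.32, edgeR adjusted p = 0.297). It was -0.19 without vehicle 3, -1.42 without vehicle 1 and -0.67 without the 3 libraries that stood apart.

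Myog, whose protein myogenin starts terminal differentiation, did not pass in any comparison. It stood at 1567, 972.5 and 776.5 CPM in vehicle, 1066, 1351 and 759.5 CPM in gRc, 1221, 907.9 and 1145 CPM with H2O2, and 851.7, 879.3 and 961.8 CPM with gRc + H2O2. The vehicle libraries spanned 2.02-fold, with vehicle 1 the highest of all 12. H2O2 against vehicle gave -0.02 (95% interval -0.62 to 0.59), an interval that also holds a fall the size of that of Myod1. The sign of this value changed in 4 other settings.

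Among the MEF2 genes, which code for MADS-box proteins, 0 of 3 passed with H2O2. Mef2c came nearest, at 138, 298 and 365 CPM in vehicle 1, 2 and 3, 236, 255 and 465 CPM in gRc, 124.5, 202 and 154 CPM with H2O2, and 204, 229 and 191.5 CPM with gRc + H2O2. All gRc + H2O2 libraries were below all gRc libraries, and against vehicle only vehicle 1 overlapped with the H2O2 libraries. Non-overlap in the downward direction was seen for 19.5% of all genes in gRc + H2O2 against gRc. The log2 fold changes were -0.74 (SE 0.35, edgeR adjusted p = 0.191) and -0.61 (SE 0.35, adjusted p = 0.292). Without vehicle 1 the former was -1.04 and passed (adjusted p = 0.0304), as it did without the 3 libraries that stood apart (-0.91, adjusted p = 0.0235), where the lone vehicle library is assumed to vary like the other groups. Without vehicle 3 it was -0.46. After gRc it was -0.25 without gRc 3.

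Mef2a stood at 95.8, 227 and 310 CPM in vehicle, 157, 190 and 350 CPM in gRc, 116.5, 219 and 153 CPM with H2O2, and 209, 259 and 184 CPM with gRc + H2O2. Its groups overlapped in all comparisons, and H2O2 against vehicle gave -0.38 (95% interval -1.29 to 0.54). Without vehicle 3 this was -0.0032, without vehicle 1 -0.72, without H2O2 1 -0.19 and without H2O2 2 -0.65. Mef2d was the steadiest of the 9. It stood at 470, 342 and 326 CPM in vehicle, 314, 381 and 357 CPM in gRc, 396, 364 and 423 CPM with H2O2, and 359, 363 and 395 CPM with gRc + H2O2. Its log2 fold change for H2O2 against vehicle was 0.06 (95% interval -0.30 to 0.42) and 0.09 after gRc (-0.27 to 0.45).

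Pax7, the marker of satellite cells, had the smallest adjusted p of the set against vehicle. It was measured at 15.03, 20.3 and 23.6 CPM in vehicle and 16.8, 17.6 and 25.5 CPM in gRc. It was measured at 7.74, 8.14 and 8.52 CPM with H2O2 and 9.57, 10.1 and 7.39 CPM with gRc + H2O2. The highest library with H2O2, at 10.1 CPM, was below the lowest without it, at 15.03 CPM. Such a gap was seen for 10.1% of all genes. The log2 fold change was -1.27 (SE 0.22, edgeR adjusted p = 0.00352) against vehicle, to 0.414 of its level, and -1.15 (SE 0.22, adjusted p = 0.00563) after gRc. The call against vehicle held in all 10 other settings and without each library in turn (adjusted p from 0.00163 to 0.0174). The call after gRc was lost only with limma on TPM (adjusted p = 0.0504).

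Six4, a homeobox factor that acts with Eya proteins, stood at 9.43, 36.2 and 38.8 CPM in vehicle, 27.0, 25.4 and 56.0 CPM in gRc, 13.1, 23.4 and 17.5 CPM with H2O2, and 30.2, 33.6 and 21.7 CPM with gRc + H2O2. Vehicle 1 was the lowest library of all 12 and gRc 3 the highest. H2O2 against vehicle gave -0.65 (SE 0.48, edgeR adjusted p = 0.403), with -1.05 without vehicle 1, -0.42 without vehicle 2 and -0.36 without vehicle 3. Without the 3 libraries that stood apart it gave -1.02 and passed (adjusted p = 0.0418), again with a lone vehicle library.

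Since gRc did not separate the groups, both H2O2 groups were also set against both others in 1 contrast, which was chosen after the data were seen and uses the same libraries. Myod1 (-0.51, edgeR adjusted p = 0.00546), Myf6 (-1.28, adjusted p = 0.000757) and Pax7 (-1.21, adjusted p = 0.000207) passed, against 31.0% of all genes, 16.4% downward. These 3 also had all 6 libraries with H2O2 below all 6 without it, as did 10.1% of all genes. Mef2c did not pass at -0.67 (adjusted p = 0.0623), but passed in 4 of 9 other settings, with DESeq2 (0.0327), the GC correction (0.0316), GC and block (0.0198) and without the 3 libraries that stood apart (0.0112), and also without vehicle 1 (0.00826). Six4, at -0.50 (adjusted p = 0.295), passed only without vehicle 1 (0.0415). Myod1, Myf6 and Pax7 passed this contrast in all 9 other settings and without each library in turn.

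Of the cycling cell markers Mki67, Top2a, Cdk1, Ccnb1, Mcm2 and Pcna, 1 of 6 fell against vehicle, Mcm2 by 0.55 on the log2 scale. Across all genes 15.7% passed there, 7.84% downward. All 6 fitted values were below 0, with a median of -0.41, against -0.06 over all genes. After gRc Mcm2 fell by 0.52 (edgeR adjusted p = 0.0114), where 15.7% of all genes passed, 8.15% downward. There 5 of 6 values were below 0, with a median of -0.39, against -0.04 over all genes. Their summed level was 193 to 213 TPM in vehicle, 176.5 to 239.5 TPM in gRc, 142.5 to 174 TPM with H2O2 and 148 to 198 TPM with gRc + H2O2. Their part in the lower Pax7 and Myod1 was not tested. The fibroblast markers summed to 420 to 2409 TPM in vehicle and 497 to 821 TPM with H2O2, with Tcf21 at 0, and 0 of the 4 tested passed. In these bulk samples, fewer cells of a type and less RNA per cell cannot be told apart.

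**Figure D3:**
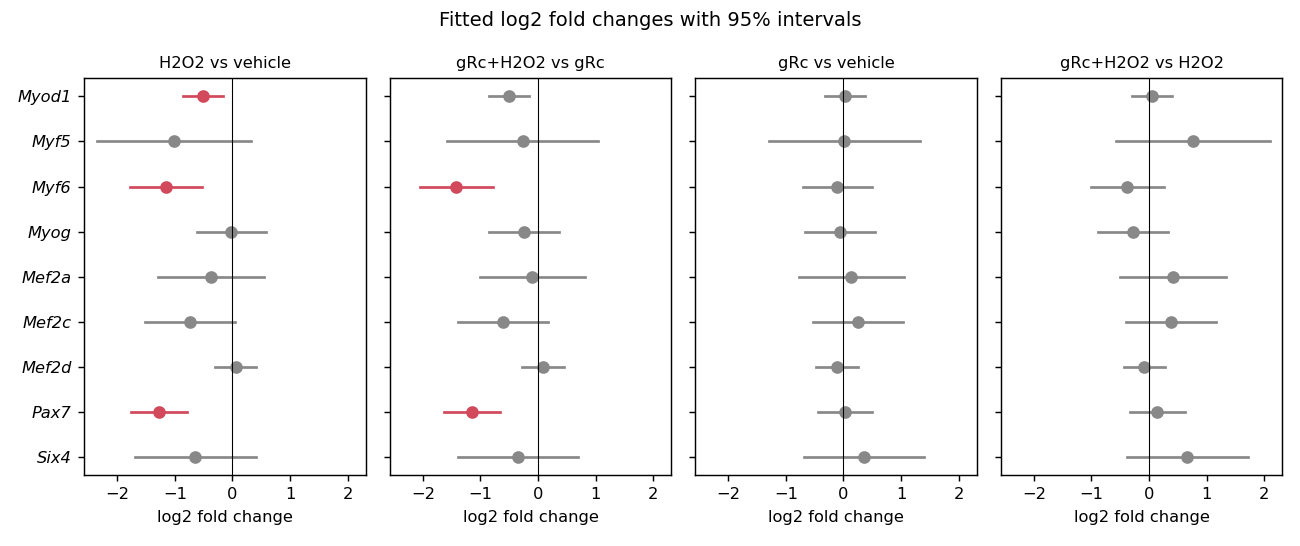
Fitted log2 fold change of each gene (points) with its 95% interval (lines) in the 4 comparisons, from 1 edgeR fit of 12 libraries. Red marks an adjusted p under 0.05: Pax7, Myf6 and Myod1 for H2O2 against vehicle, and Pax7 and Myf6 for gRc + H2O2 against gRc. Every interval in both comparisons of gRc (right panels) includes 0.

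gRc changed none of the 9 genes detectably. In gRc against vehicle 0 of 9 members passed, and 0 of 9 had an unadjusted p under 0.05. Across all genes 0% passed in edgeR and 0 genes in DESeq2. In edgeR 74 genes, or 0.499%, had an unadjusted p under 0.05. A share this far under the threshold means that the test was conservative here and could miss changes. The narrowest intervals were those of Myod1 (0.03, 95% interval -0.31 to 0.38) and Mef2d (-0.11, -0.47 to 0.25), and the widest that of Myf5 (0.01, -1.30 to 1.32). For Pax7 the value was 0.02 (-0.45 to 0.49), for Myf6 -0.10 (-0.71 to 0.50) and for Myog -0.06 (-0.67 to 0.54). For Mef2a, Mef2c and Six4 it was 0.14 (-0.78 to 1.06), 0.26 (-0.52 to 1.03) and 0.36 (-0.69 to 1.40). Without the 3 libraries that stood apart, 7 of the 9 values changed sign.

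Under H2O2, gRc pretreatment again gave 0 of 9 calls and 0% of all genes in edgeR, and 2 genes in DESeq2. At an unadjusted p under 0.05 in edgeR there were 0 members and 122 genes (0.822%), again a share far under the threshold. For the 3 genes lowered by H2O2 no difference was detected, which does not show that they stayed at their H2O2 level. Pax7 differed by 0.15 (95% interval -0.33 to 0.63), Myod1 by 0.05 (-0.30 to 0.39) and Myf6 by -0.37 (-1.01 to 0.26). The largest fitted values belonged to genes with wide intervals, Myf5 (0.76, -0.57 to 2.10) and Six4 (0.66, -0.39 to 1.71). Mef2a gave 0.42 (-0.50 to 1.34), Mef2c 0.38 (-0.40 to 1.16), Mef2d -0.08 (-0.44 to 0.28) and Myog -0.28 (-0.89 to 0.32).

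Whether the response to H2O2 itself differed with gRc was tested as an interaction. It passed for 0 of 9 members and 0% of all genes in edgeR, and for 1 gene in DESeq2. At an unadjusted p under 0.05 in edgeR there were 0 members and 87 genes (0.586%), so this test was conservative too. The difference in response was 0.01 for Myod1 (95% interval -0.48 to 0.50), 0.13 for Pax7 (-0.54 to 0.80) and -0.27 for Myf6 (-1.15 to 0.61). That Myod1 passed against vehicle and not after gRc is therefore not a difference between the 2 responses that these data show.

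Likeness between members was measured as the root mean square (RMS) difference in log2 CPM. Each gene was first centred on its mean over the 12 libraries. The difference is also small between genes that vary little and large between genes that vary much. The smallest difference was that of Myog and Mef2d (0.232), but Mef2d itself varied by only 0.154 and Myog by 0.308. Mef2a, Mef2c and Six4 lay at 0.241 to 0.271 from each other, although they varied by 0.52 to 0.674. The largest differences were those of Myf5 from Myf6 (1.06), its neighbour, and from Myog (1.04). Myf5 and Myf6 themselves varied by 0.757 and 0.685, and Myog by 0.308. Myf5, Six4, Mef2a and Mef2c were all lowest or near lowest in vehicle 1 and highest in gRc 3, level with vehicle 3 for Myf5. Their GC content was 41.6% to 45.4%, at percentiles 6.5 to 20.8 of the genes tested, and that of Myod1, Mef2d and Myog was 54.8% to 58.9%. The members did not divide by GC content throughout. Myf6, at 46.4%, was highest in vehicle 1 (4.16 CPM), and Pax7, at 58.2%, was highest in gRc 3 and vehicle 3 (25.5 and 23.6 CPM). The part of GC content in this pattern was not tested. With a correction for it, Pax7, Myf6 and Myod1 passed against vehicle.

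**Figure D4:**
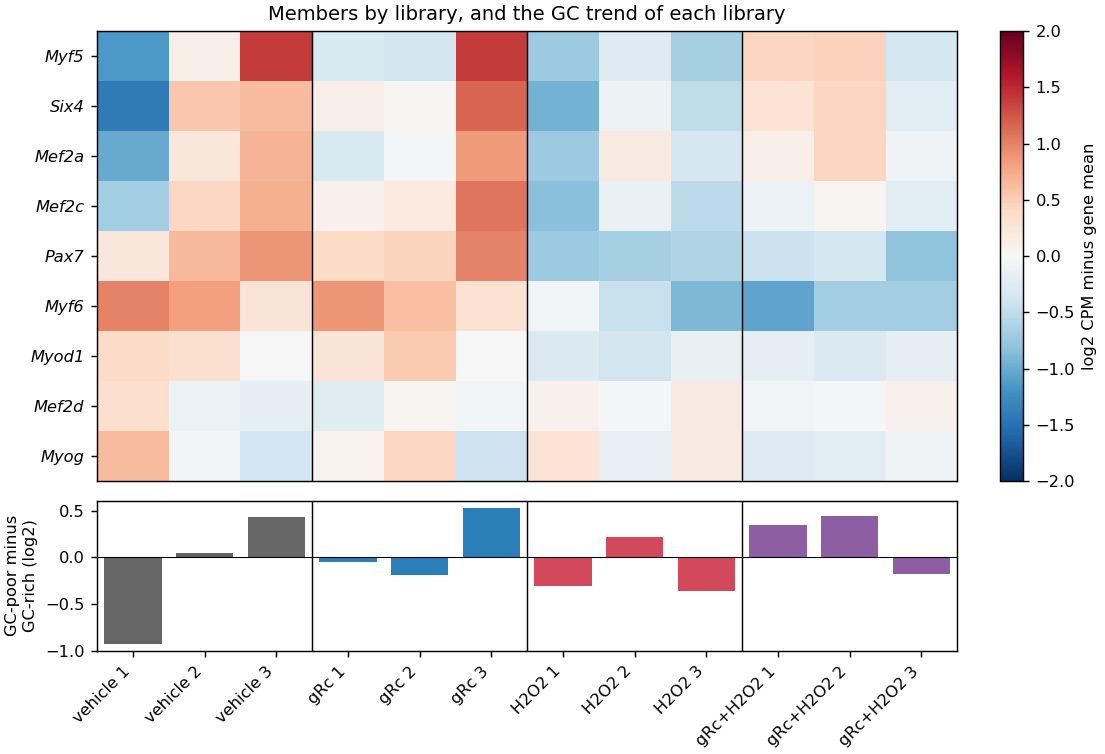
Top, log2 CPM of each gene minus its mean over the 12 libraries, from -2 (blue) to 2 (red). Bottom, level of GC-poor relative to GC-rich genes in each library (log2). Vehicle 1, with -0.93 in the lower panel, is blue for Myf5, Six4, Mef2a and Mef2c, and vehicle 3 and gRc 3, with 0.43 and 0.53, are red for them.

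The genes outside the set most like each member were sought among 10843 genes by the same RMS over the 12 libraries. The closest match of all was Prr33 to Myod1 (0.0545, where Myod1 itself varied by 0.287), followed for that gene by Plcg1 and Mturn. Mef2d was closest to Arhgap23, Piezo1 and Usp12 (0.0662 to 0.072), Myog to Hps1, Fuca1 and Rabl6 (0.0741 to 0.0861), and Pax7 to Atp2b4, Rhobtb2 and Lrrc17 (0.0962 to 0.125). Mef2a was closest to Vamp2, Klf10 and Bicra (0.106 to 0.109) and Mef2c to Tcf7l2, Mki67 and Igfbp5 (0.107 to 0.116). Myf5 matched Rbms2, Ap3m1 and Dad1 (0.138 to 0.16) and Six4 was close to Casc4 (0.174) and Lmbrd2 (0.194). The loosest matches were those of Myf6, to Hey1, Kif14 and Stard4 (0.199 to 0.222).

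Within the MRF family, Myog made up 84.2% to 91.9% of the summed TPM and Myod1 7.69% to 13.9%. The ratio of Myog to Myod1 TPM was 9.57, 6.21 and 6.22 in vehicle and 7.14, 7.52 and 6.06 in gRc. It was 11.9, 9.36 and 10.2 with H2O2 and 7.75, 8.63 and 8.79 with gRc + H2O2. The gRc + H2O2 libraries lay above the gRc libraries and below the H2O2 libraries, each with an exact permutation p of 0.1, the smallest that 3 against 3 allows, and an adjusted p of 0.56 over 28 tests. Vehicle 1 overlapped with the H2O2 group, so H2O2 against vehicle gave an exact p of 0.2.

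Within the MEF2 family, Mef2d held the largest mean share, 50.0% of the summed TPM over the 12 libraries. The share of Mef2c was 21.5%, 36.7% and 34.8% in vehicle, 35.1%, 35.2% and 38.5% in gRc, 21.2%, 26.7% and 23.7% with H2O2, and 25.8%, 26.4% and 26.0% with gRc + H2O2. The last group lay below the gRc group (exact permutation p = 0.1, adjusted p = 0.56). Vehicle 1 stood with the H2O2 libraries rather than with the other vehicle libraries.

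**Figure D5:**
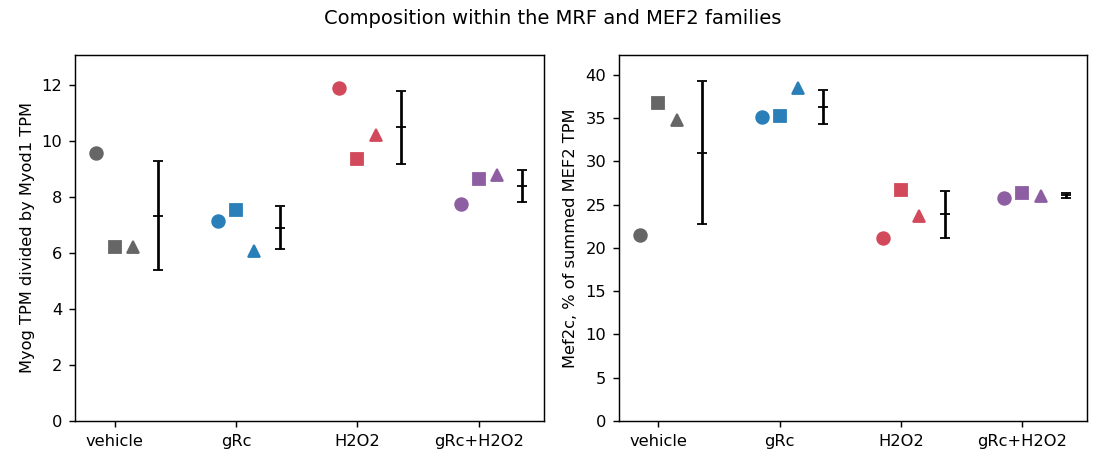
Left, TPM of Myog divided by that of Myod1 in each library. Right, share of Mef2c in the summed TPM of Mef2a, Mef2c and Mef2d. Symbols are replicates 1, 2 and 3 (circle, square, triangle) and black bars the mean ± SD (n = 3). The mean ratio is highest with H2O2 (9.36 to 11.9) and the mean share of Mef2c highest in gRc (35.1% to 38.5%). Vehicle overlaps with both, at 9.57 for the ratio in vehicle 1 and 36.7% for the share in vehicle 2.

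For genes with several transcripts, RSEM reports a mean length weighted by how much each transcript was used, so that a shift between long and short forms changes it. The length varied for 5 members, and 3 of 20 comparisons had groups apart, none with an adjusted p below 0.6 (exact permutation test, smallest p 0.1). Mef2a measured 5140, 4641 and 4743 bases in vehicle, 4322, 4778 and 4694 in gRc, 3645, 4337 and 4233 with H2O2, and 4913, 4637 and 4348 with gRc + H2O2. The H2O2 libraries were shorter than both vehicle and gRc + H2O2, where 7.11% and 15.9% of 10515 genes with a varying length had groups apart. Pax7 measured 5221, 5235 and 4958 bases in gRc and 4751, 4501 and 4611 with gRc + H2O2, also apart, as were 10.5% of genes. No member was apart in gRc against vehicle, where 2.74% of genes were.

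The partners and targets of the MRFs were examined as lists, also chosen with earlier results of these data known. Their counts against vehicle stand beside 15.7% of all genes called, 7.84% downward, and a median of -0.06. After gRc the shares of all genes were 15.7% and 8.15%, and the median was -0.04. Of the 3 E protein genes, Tcf4 fell with H2O2 (104 ± 22.9 to 51.0 ± 6.65 CPM, mean ± SD, n = 3; log2 fold change -1.03, SE 0.27, edgeR adjusted p = 0.0258) and Tcf3 and Tcf12 did not pass. After gRc Tcf4 differed by -0.87 (adjusted p = 0.0501). Of 15 tested cofactors, 1 fell with H2O2, the acetyltransferase gene Kat2b (-1.13, SE 0.14, adjusted p = 0.000459), and it fell after gRc as well (-1.37, adjusted p = 0.000165). Crebbp (0.42, adjusted p = 0.415) and Smarcd3 (-0.60, adjusted p = 0.177) did not pass. The median of the cofactor list was -0.12.

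Of 18 genes tested for inhibitors of MRFs and MEF2, 5 fell and 1 rose against vehicle, with a median log2 fold change of -0.57. The difference from other lists was not tested. Heyl, a Notch target, fell from 36.4 ± 9.65 to 6.63 ± 1.03 CPM (log2 fold change -2.45, SE 0.28, edgeR adjusted p = 0.000333). Id3, whose protein sequesters E proteins, fell from 12.8 ± 2.97 to 4.04 ± 0.92 CPM (-1.66, SE 0.24, adjusted p = 0.0013). Hes1, another Notch target, fell by 0.70 on the log2 scale (adjusted p = 0.0117). Hdac4, whose protein binds and represses MEF2, rose by 0.93 (29.8 ± 6.88 to 56.9 ± 6.96 CPM, adjusted p = 0.00712). The others that fell were Hey1 (-0.74) and Bhlhe41 (-1.10), named after their values were seen. After gRc, 4 fell and 1 rose: Heyl (-2.38), Id3 (-1.88), Hey1 (-1.25) and Msc (-1.19), the last also named after its value was seen, and Hdac4 (0.74).

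Of 19 other muscle transcription factor genes tested, 2 fell and 1 rose in both comparisons, where 15.7% of all genes passed in each. The median was -0.42 against vehicle, with 14 of 19 values below 0. After gRc it was -0.31, with 13 of 19 below 0. Six5 fell by 0.97 on the log2 scale with H2O2 (SE 0.20, edgeR adjusted p = 0.00951) and by 0.86 after gRc. The T-box gene Tbx1 rose by 0.71 (SE 0.15, adjusted p = 0.00839) and by 0.75. Nfix, a factor of fetal muscle, did not pass at -0.56 (adjusted p = 0.0897). Six4 itself, with a smaller fitted change (-0.65) and a larger SE, did not pass, and the difference from Six5 was not tested.

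Of 35 genes tested that the MRFs and MEF2 are known to switch on in differentiation, 1 fell with H2O2 and 0 rose, where 15.7% of all genes were called, with a median of -0.07 and 20 values below 0. The one that fell was Chrng, the embryonic subunit of the acetylcholine receptor (441 ± 19.9 to 319 ± 6.87 CPM, log2 fold change -0.47, SE 0.12, edgeR adjusted p = 0.0255). The fusion gene Mymx (-0.39, adjusted p = 0.101), the calcium pump gene Atp2a1 (-0.57, adjusted p = 0.0594) and the actin-binding protein gene Xirp1 (0.62, adjusted p = 0.0521) did not pass. After gRc 1 of 35 fell, the cardiac actin gene Actc1 (-0.46), named after its value was seen. There the median was -0.22, with 26 of 35 values below 0, against -0.04 over all genes.

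Of 8 tested genes of satellite cells other than Pax7, 2 fell with H2O2, where 7.84% of all genes fell, and all 8 fitted values were below 0, with a median of -0.46. Spry1, a feedback inhibitor of growth factor signalling that keeps satellite cells quiescent, fell from 29.4 ± 2.01 to 8.70 ± 0.72 CPM (log2 fold change -1.76, SE 0.14, edgeR adjusted p = 3.8e-05). Vcam1, an adhesion receptor, fell from 55.5 ± 3.78 to 29.9 ± 2.56 CPM (-0.89, SE 0.15, adjusted p = 0.00293). Megf10 (-0.53, adjusted p = 0.0673) and Cxcr4 (-1.46, adjusted p = 0.18) did not pass against vehicle, and after gRc Megf10 fell by 0.70 along with Spry1 (-1.72) and Vcam1 (-0.63). In gRc against vehicle and gRc + H2O2 against H2O2, 0 genes of these 6 lists passed, as of all genes.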

How the data were processed

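Poly(A)-selected RNA of C2C12 myotubes was sequenced in 12 libraries. According to the labels and the study's methods, the authors aligned reads with STAR (2.7.3a) to GRCm38 and quantified genes with RSEM (1.3.3). The authors deposited expected counts, which were rounded and tested, and TPM scaled within each library, used for levels between genes. RSEM's transcript length is a deposited score in bases. Whether counting used strand is not given in the sources used here.

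R 4.3.3 and edgeR 4.0.16 were used with TMM factors, filterByExpr and 1 quasi-likelihood fit of 12 libraries. SE were derived from the fold change and its F statistic. Alternatives were DESeq2 1.42.0, limma 3.58.1 on log2(TPM + 0.5), other size factors or filters (at least 10 counts), only the groups compared, the replicate block, libraries left out and, added later, a GC correction. The test of H2O2 against vehicle was checked on simulated counts, drawn independently for each gene and library. These lack the shared differences between replicates seen on the leading principal component, so the check does not cover them. All members are named, with the 4 smallest p of each other list against vehicle and the 3 genes most like each member (average log2 CPM of at least 2). A few genes that this rule names are not reported here. Members and lists were chosen with earlier results of these data known.

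For gRc and vehicle, deviations from the group mean correlated between libraries of the same replicate number (0.46, 0.271 and 0.86, all over the set 0.1). Each other comparison had a value under 0.1, as in gRc + H2O2 against H2O2 (0.0802, 0.402 and 0.309). Libraries of different numbers were not compared, so these values do not show that the numbers pair libraries.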

Additional observations from a re-analysis of the deposited data

How the results depend on the processing

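Pax7, Myf6 and Myod1 kept their direction with H2O2 in every alternative, while each lost a call in some: Myod1 and Myf6 against vehicle, and Pax7 after gRc with limma. The number of members called for H2O2 against vehicle (3) was 1 in a fit of only the 2 groups, 5 without the 3 libraries that stood apart, 2 with the replicate block and 1 to 3 when 1 library was left out (1 without vehicle 2, H2O2 2 or H2O2 3). For gRc + H2O2 against gRc (2) it was 1 with limma on TPM, 2 with the block and 2 to 3 when 1 library was left out. All genes called against vehicle (2323) numbered 739 in a fit of 2 groups, 1492 with limma, 2305 with the block and 1267 to 3108 leaving out 1 library. After gRc (2332) they numbered 1459 with limma, 5153 without the 3 libraries, 2354 with the block and 1186 to 3255 leaving out 1 library. DESeq2 called 2 genes for gRc + H2O2 against H2O2 and 1 for the interaction, where edgeR called 0. The comparisons of transcript length with groups apart (3) numbered 3 to 6 leaving out 1 library. The replicate block changed no other call of a member, and it called 0 genes in gRc against vehicle, where libraries of the same number correlated.

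Signs changed only among values that did not pass. For H2O2 against vehicle, Myog became 0.0198 with the block, 0.155 without the 3 libraries, 0.0058 with the GC correction and 0.035 with GC and block, and Mef2d became -0.0046 with limma. After gRc, Myf5 became 0.0284 with the block, and without the 3 libraries Myf5, Mef2a and Six4 became 0.56, 0.32 and 0.11. For gRc against vehicle, Myf5 became -0.0043 with DESeq2, -0.0057 with other size factors, -0.00096 with no filter, -0.052 with the GC correction and -0.033 with GC and block. Myog became 0.037 with limma and 0.01003 with GC and block. Without the 3 libraries the values were -0.46 for Myf5, 0.31 for Myog, -0.39 for Mef2a, -0.28 for Mef2c, 0.017 for Mef2d, -0.25 for Pax7 and -0.47 for Six4. For gRc + H2O2 against H2O2, Mef2d became 0.041 with limma. In the interaction, Myod1 became -0.022 and Mef2d -0.10 without the 3 libraries, and Mef2a became -0.021 and Mef2c -0.10 with limma. The cause was not tested.

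Leaving out 1 library gave the following ranges for values whose sign changed. For gRc against vehicle they were -0.12 to 0.15 for Myod1, -0.82 to 0.83 for Myf5, -0.30 to 0.052 for Myf6, -0.29 to 0.28 for Myog, -0.29 to 0.51 for Mef2a, -0.12 to 0.53 for Mef2c, -0.23 to 0.072 for Mef2d, -0.20 to 0.16 for Pax7 and -0.11 to 0.64 for Six4. For H2O2 against vehicle they were -0.23 to 0.32 for Myog and -0.058 to 0.24 for Mef2d. After gRc they were -0.54 to 0.55 for Myf5, -0.31 to 0.31 for Mef2a and -0.53 to 0.10 for Six4. For gRc + H2O2 against H2O2 Myod1 gave -0.015 to 0.10, and for both H2O2 groups against both others Myog gave -0.24 to 0.043. In the interaction they were -0.11 to 0.17 for Myod1, -0.078 to 1.57 for Myf5, -0.56 to 0.0071 for Myog, -0.097 to 0.70 for Mef2a, -0.16 to 0.50 for Mef2c, -0.16 to 0.14 for Mef2d and -0.019 to 0.34 for Pax7.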
